A study of Mus musculus with 18 samples.

Results

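A set of 10 genes that mark monocytes and macrophages were read in RNA-seq libraries of sorted mouse regulatory T (Treg) cells: Lyz2, Csf1r, Cd14, Fcgr4, Treml4, Ly6c2, Adgre1, Chil3, Retnla and Cd68. They were taken as a list of names and are 10 of the 55487 Ensembl gene IDs in the deposited tables. The series profiled freshly sorted CD4+Foxp3+ T cells. Peripheral blood, bone marrow, lung, spleen, liver and lymph node each gave 3 libraries, 18 in all. All groups were wild-type, untreated mice, and the RNA was poly(A)-selected and made into directional libraries. The labels do not give the strain, age or sex of the mice or the sorting gates. They also leave unsaid whether animals were pooled and whether the 3 libraries of an organ are separate animals or sorts, so the p-values below measure only the spread between these libraries. Values are TPM, a transcript level normalised for length, with the same total in each library, and all comparisons between organs used limma on log2(TPM + 1) over all genes tested.

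Monocytes are made in the bone marrow from granulocyte and monocyte progenitors and leave it through the blood. In mice they fall into classical cells, which carry high Ly6C and can enter tissues, and nonclassical cells, which carry little Ly6C and patrol the vessel wall. Most tissues also hold resident macrophages with a profile of their own, such as alveolar macrophages in the lung, Kupffer cells in the liver and red pulp macrophages in the spleen. Csf1r, the receptor of the growth factor CSF1, is used by nearly all of these cells. Several of the genes are shared with other cells: neutrophils make lysozyme and their precursors make Chil3, and some T cells carry Ly6C.

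Genes of the labelled cell type were read first. All 10 genes of a T cell and Treg list were above 1 TPM in every organ, and mean Foxp3, the transcription factor that defines Treg cells, lay between 88.6 TPM in blood and 239 TPM in lymph node. The summed level of that list was lowest in blood (1506 TPM) and highest in lung (4146 TPM). All 8 genes of a B cell list were also above 1 TPM in every organ, with mean sums from 85.6 TPM in liver to 622 TPM in blood. Passing 1 TPM therefore does not identify the cell type. TPM keeps no read depth. The number of genes above 0 averaged 14356 in liver, 15407 in lung and 16725 in spleen, against 19184 to 19706 in the other 3 organs, and the median coefficient of variation of genes above 100 TPM ran from 2.55% in lymph node to 10.5% in liver. In liver, 27 genes were at 0 in a library while another listed at least 100 TPM, so a value of 0 there can be a failed estimate.

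Together the 10 genes made up 8625 ± 113 TPM of the blood libraries (SD, n = 3), 4486 ± 47.6 TPM in bone marrow and 1543 ± 76.0 TPM in lung. They made up 205 ± 13.5 TPM in spleen, 64.5 ± 23.6 TPM in liver and 27.2 ± 4.6 TPM in lymph node. The ranges of the 6 organs did not overlap. In bulk libraries, fewer cells of a type and less RNA per cell cannot be told apart, so a level here is a share of a library's RNA. All 10 genes passed the test for a difference among the 6 organs, in which 68.0% of the 16694 genes tested were called (limma F test, adjusted p under 0.05).

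**Figure D1:**
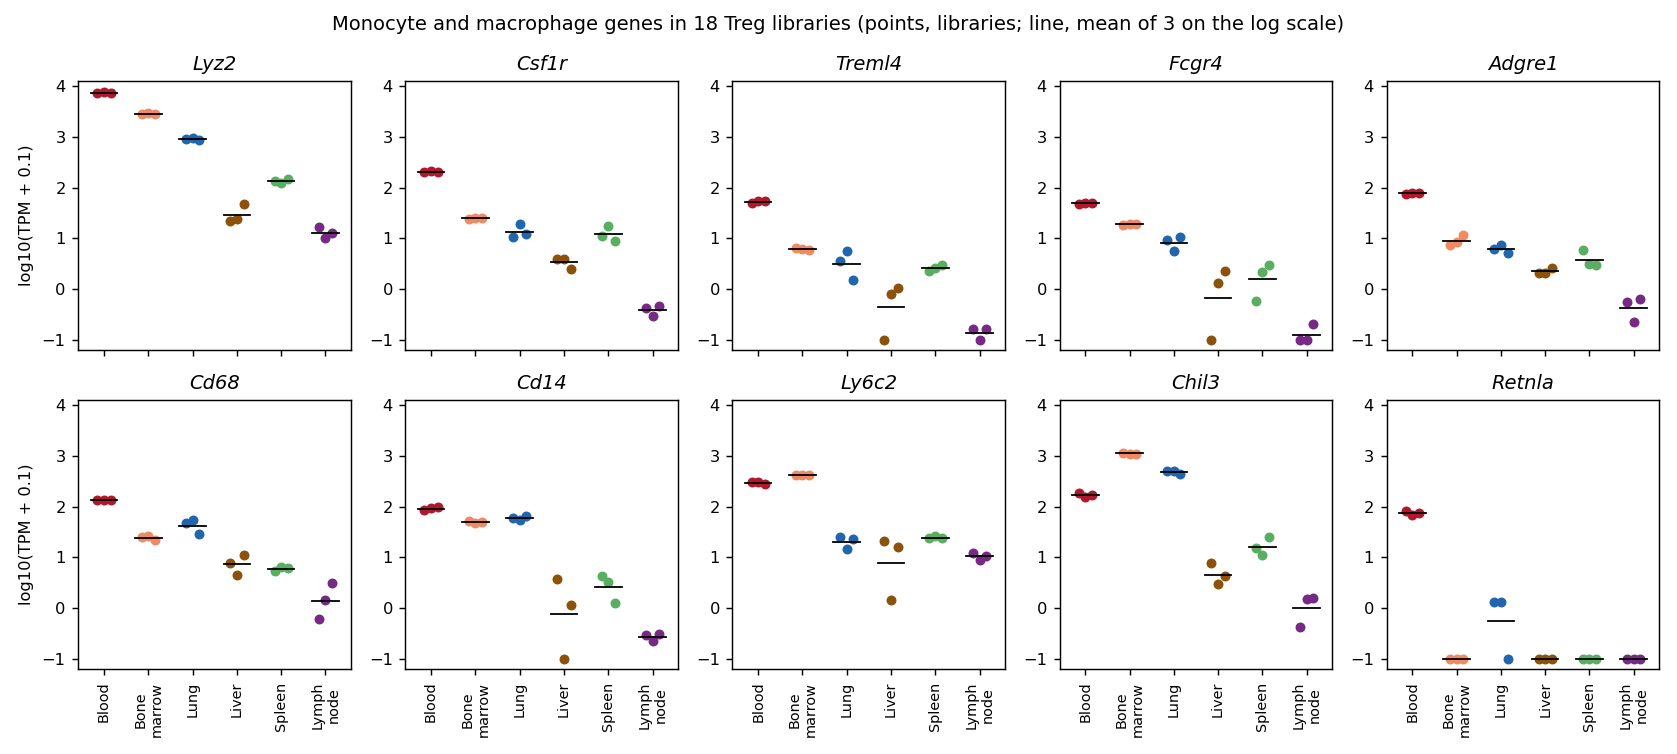
Level of each of the 10 genes in each library, as log10(TPM + 0.1), by organ; points are libraries and the line is the mean of 3 on the log scale. Blood is highest for 8 of the genes, bone marrow is highest for Ly6c2 and Chil3, and lymph node has the lowest line for every gene except Ly6c2, where liver is lowest through replicate 2, and Retnla, which is at 0 in 4 organs.

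The level of Lyz2, which encodes lysozyme M, an enzyme that cuts bacterial cell walls and is made by monocytes, macrophages and neutrophils, was 7388, 7591 and 7428 TPM in the 3 blood libraries. It was 2777, 2887 and 2764 TPM in bone marrow, and 916, 930 and 870 TPM in lung. Spleen held 133, 123 and 147 TPM, liver 21.4, 23.4 and 46.7 TPM, and lymph node 16.6, 9.93 and 12.8 TPM. The organs formed a ladder with no overlap between any neighbours. Each step of it passed the test. Blood lay 1.41 ± 0.21 (SE) above bone marrow on the log2(TPM + 1) scale (limma adjusted p = 8.4e-05), and bone marrow lay 1.63 ± 0.21 above lung (adjusted p = 1.28e-05). Lung lay 2.75 ± 0.21 above spleen (adjusted p = 3.88e-08), spleen 2.18 above liver (adjusted p = 1.31e-06) and liver 1.10 above lymph node (adjusted p = 0.000956). The step from liver to lymph node was not called when the fit held only those 6 libraries.

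Lyz2 (chr10:117277331-117282321, minus strand, GRCm38) has a close copy, Lyz1, next to it on chromosome 10, and 195 of the 1267 stretches of 50 bases in its longest transcript (15.4%) also occur in Lyz1. The 80 bases upstream of both genes show how alike they are. Of these, 70 are identical without a gap, and capitals mark the 10 that differ (RefSeq promoter windows, GRCm38.p6, minus strand, printed 5′ to 3′, chr10:117282322-117282401 for Lyz2 and chr10:117292918-117292997 for Lyz1).
Lyz2: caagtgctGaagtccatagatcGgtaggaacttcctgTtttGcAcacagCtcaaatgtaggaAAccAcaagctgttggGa
Lyz1: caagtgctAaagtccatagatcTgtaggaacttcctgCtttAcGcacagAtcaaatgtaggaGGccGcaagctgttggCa
Despite that likeness, Lyz1 was listed at 58.6, 50.2 and 59.2 TPM in blood and at no more than 3.25 TPM in any other library. In blood the Lyz2 level was 134 ± 14.6 times that of Lyz1, and in bone marrow the ratio was 1440 ± 681. How reads that fit both genes were shared is set by the authors' quantification, so the Lyz1 values are uncertain.

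Csf1r was also highest in blood, at 198, 215 and 204 TPM. Bone marrow held 24.2, 25.0 and 25.1 TPM, lung 10.3, 19.0 and 12.1 TPM, and spleen 10.8, 17.7 and 8.81 TPM. Liver held 3.74, 3.81 and 2.42 TPM, and lymph node 0.33, 0.20 and 0.36 TPM. The blood libraries stood far above the rest, lung and spleen overlapped, and lymph node was close to 0. Blood lay 3.00 ± 0.23 above bone marrow (limma adjusted p = 7.73e-08). Bone marrow lay 0.84 ± 0.23 above lung (adjusted p = 0.00812), whereas lung and spleen did not differ beyond their spread (0.15 ± 0.23, adjusted p = 0.654). Csf1r overlaps Hmgxb3 on the other strand in the annotation, and the sources used here do not say whether strand was used in counting.

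Adgre1 encodes F4/80, a surface receptor of macrophages that monocytes and eosinophils also carry. Its level was 76.0, 79.5 and 78.7 TPM in blood and 7.17, 8.39 and 11.6 TPM in bone marrow. Lung held 6.10, 7.35 and 4.98 TPM, and spleen 5.68, 2.99 and 2.81 TPM. Liver held 1.96, 1.95 and 2.49 TPM, and lymph node 0.46, 0.12 and 0.55 TPM. Blood stood alone, bone marrow overlapped lung, lung overlapped spleen, and lymph node was the lowest with no overlap. The difference between blood and bone marrow was 3.00 ± 0.24 (limma adjusted p = 9.28e-08), close to that of Csf1r. Bone marrow and lung were not called apart (0.48 ± 0.24, limma adjusted p = 0.115). Lung and spleen were not called apart either, but lay near the threshold (0.60 ± 0.24, limma adjusted p = 0.0542). Without spleen replicate 1, lung lay 0.86 above spleen in Adgre1, and without lung replicate 3 it lay 0.72 above, and both of those differences were called. So were 0.92 when scaled to T cell genes, 0.65 with median ratio scaling and 0.60 with a filter at 5 TPM.

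Cd68, a glycoprotein of late endosomes and lysosomes that is abundant in macrophages, was at 137, 137 and 133 TPM in blood. Here lung came second with 48.2, 53.5 and 29.2 TPM, ahead of bone marrow with 25.0, 26.5 and 21.9 TPM. Liver held 7.85, 4.43 and 10.96 TPM, spleen 5.30, 6.34 and 6.16 TPM, and lymph node 0.51, 1.35 and 2.97 TPM. Lung and bone marrow did not overlap, and liver and spleen did. Blood lay 1.66 ± 0.32 above lung (limma adjusted p = 0.000505). Lung and bone marrow were not called apart (-0.77 ± 0.32 for bone marrow minus lung, adjusted p = 0.064). That comparison was near the threshold. It was called with median ratio scaling (-0.92), without abundant RNA classes (-0.90), when scaled to T cell genes (-0.77) and in a fit of those 2 organs (-0.77). The bone marrow minus lung difference of Cd68 was -1.03 and called without lung replicate 3, and it was also called, at the same -0.77, without liver replicate 2, liver replicate 3, lymph node replicate 1 or lymph node replicate 3, which enter only through the shared spread (adjusted p between 0.0234 and 0.221 over all alternatives).

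Cd14, the co-receptor that passes bacterial lipopolysaccharide to Tlr4, did not follow the ladder of Lyz2. It was at 84.7, 92.3 and 96.9 TPM in blood, 58.9, 54.7 and 64.4 TPM in lung, and 51.7, 48.7 and 49.5 TPM in bone marrow. Spleen held 4.23, 3.18 and 1.17 TPM, liver 3.73, 0 and 1.04 TPM, and lymph node 0.19, 0.13 and 0.21 TPM. The 3 upper organs lay close together without overlapping, and a wide gap separated them from the 3 lower ones. Blood was not called against lung (0.61 ± 0.40, limma adjusted p = 0.243) or bone marrow (0.85 ± 0.40, adjusted p = 0.129). The difference from lung was called in a fit of blood and lung only (0.61) and when scaled to 20 T cell genes (1.21). Lung was not called against bone marrow (-0.24 ± 0.40 for bone marrow minus lung, adjusted p = 0.674). On the log2 scale liver had the widest spread in Cd14, with 1 library at 0. Without liver replicate 1 or liver replicate 2, the same 0.85 between blood and bone marrow was called, as it was in a fit of those 2 organs, and so were 0.87 with library weights and 1.45 when scaled to T cell genes (adjusted p between 3.1e-05 and 0.521 over all alternatives). Bone marrow lay 3.81 ± 0.40 above spleen (adjusted p = 2.81e-06). Spleen lay 1.62 above lymph node (adjusted p = 0.0128), a call that was lost without spleen replicate 1, where the difference was 1.36.

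Ly6c2 encodes Ly6C, the surface protein that sets classical monocytes apart. Its order was led by bone marrow, with 425, 414 and 431 TPM, followed by blood with 303, 312 and 282 TPM. Spleen held 24.4, 25.9 and 23.7 TPM, lung 25.2, 14.3 and 22.7 TPM, liver 20.6, 1.38 and 16.0 TPM, and lymph node 12.04, 8.82 and 10.7 TPM. Bone marrow and blood did not overlap each other or any other organ, while spleen, lung and liver overlapped in part. The difference of blood minus bone marrow was -0.50 ± 0.54, not called (limma adjusted p = 0.551), and it turned to 0.10 when each library was scaled to 20 T cell genes. On the log2 scale liver had the widest spread in Ly6c2, with replicate 2 far below the others. Without that library the same -0.50 was called, as it was in a fit of the blood and bone marrow libraries alone (adjusted p between 8.23e-05 and 0.918 over all alternatives). Without liver replicate 2, liver lay 0.74 above lymph node in Ly6c2, a called difference, in place of -0.26. Lung against lymph node (0.89) and spleen against lymph node (1.16) were likewise called only when liver replicate 2 was left out, among the leave-one-out fits.

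The promoter of Ly6c2 (chr15:75108158-75111970, minus strand) holds GAGGAAGT, a motif of the type bound by the myeloid transcription factor PU.1 (Spi1). Both strands of the 250 bases upstream were searched, in 32817 RefSeq windows, for this motif and for TTGCNNAA, of the type bound by C/EBP factors. TTGCNNAA was in 9.57% of the windows and in 2 of the 7 genes that had one, Cd68 and Retnla. GAGGAAGT was in 801 of them (2.44%) and in 3 of the 7 genes that had a window: Fcgr4, Ly6c2 and Retnla. The windows of these 3 are shown because the genes have different orders over the organs but share these letters, which are in capitals (ACTTCCTC is the same motif on the other strand). Bases inside the GENCODE gene are left out. The motif ends 101 bases before the RefSeq start used for Ly6c2, 17 before that of Fcgr4 and 191 before that of Retnla. The window of another RefSeq start of Ly6c2 holds the same motif and 1 more inside the GENCODE gene. A match describes the sequence only, and no binding was measured.
Ly6c2, chr15:75111972-75112221, minus strand: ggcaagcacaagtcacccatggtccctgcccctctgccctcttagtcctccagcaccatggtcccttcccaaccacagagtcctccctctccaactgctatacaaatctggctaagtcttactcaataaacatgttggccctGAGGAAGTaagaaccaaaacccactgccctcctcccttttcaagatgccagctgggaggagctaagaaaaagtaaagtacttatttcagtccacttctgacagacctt
Fcgr4, chr1:171018676-171018919, plus strand: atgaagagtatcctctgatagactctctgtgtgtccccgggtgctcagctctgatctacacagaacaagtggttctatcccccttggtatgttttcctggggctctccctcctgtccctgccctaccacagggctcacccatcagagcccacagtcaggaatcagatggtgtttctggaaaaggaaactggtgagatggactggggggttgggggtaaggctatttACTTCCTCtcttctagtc
Retnla, chr16:48842359-48842550, plus strand: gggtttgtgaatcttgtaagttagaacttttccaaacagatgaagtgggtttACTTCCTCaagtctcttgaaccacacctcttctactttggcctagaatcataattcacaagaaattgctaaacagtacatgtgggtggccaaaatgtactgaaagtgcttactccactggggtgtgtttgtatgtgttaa

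The neighbouring copy Ly6c1, which many T cells express, shares 252 of the 773 stretches of 50 bases of the Ly6c2 transcript, and 33.0% of them occur in some other gene. Ly6c1 was present everywhere, from 52.5 TPM in 1 bone marrow library to 144 TPM in 1 blood library. Its highest mean was in blood (130 TPM) and its lowest in bone marrow (60.4 TPM), the organ where Ly6c2 was highest. The ratio of Ly6c2 to Ly6c1 was 7.07 ± 0.73 in bone marrow, 2.33 ± 0.36 in blood, 0.30 ± 0.12 in lung, 0.26 ± 0.06 in spleen and 0.096 ± 0.014 in lymph node. Low Ly6c2 values beside high Ly6c1 values depend on how shared reads were divided.

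Treml4, a receptor of the TREM family found on nonclassical monocytes and on some macrophages and dendritic cells, was at 49.9, 53.2 and 53.4 TPM in blood. Bone marrow held 6.35, 6.09 and 5.77 TPM, lung 3.54, 5.52 and 1.43 TPM, and spleen 2.17, 2.45 and 2.90 TPM. Liver held 0, 0.71 and 0.94 TPM, and lymph node 0.06, 0 and 0.06 TPM. Blood stood clear of all other organs, and lung and spleen overlapped. Blood lay 2.91 ± 0.31 above bone marrow in Treml4 (limma adjusted p = 2.16e-06), in contrast to Ly6c2. Bone marrow and lung were not called apart (0.76 ± 0.31, adjusted p = 0.0545), but were without lung replicate 2 (1.09), and also without liver replicate 1 or liver replicate 3 at the unchanged 0.76. A filter at 5 TPM (0.76), scaling to T cell genes (0.77) and library weights (0.70) called them apart as well. Treml4 in liver was 1.23 lower than in spleen (adjusted p = 0.00612), a difference not called in a fit of those 6 libraries alone.

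Fcgr4, the IgG receptor FcγRIV of nonclassical monocytes, macrophages and neutrophils, was at 47.5, 50.3 and 50.6 TPM in blood and at 18.4, 18.7 and 18.9 TPM in bone marrow. Lung held 9.24, 5.56 and 10.3 TPM and spleen 0.48, 2.11 and 2.93 TPM. Liver held 0, 1.22 and 2.13 TPM, and lymph node 0, 0 and 0.10 TPM. Blood, bone marrow and lung formed separate steps, and liver overlapped both spleen and lymph node. The step of Fcgr4 from bone marrow to blood, 1.36 ± 0.38 (limma adjusted p = 0.0123), was not called with a pseudocount of 0.1 (1.40). Bone marrow lay 1.11 ± 0.38 above lung (adjusted p = 0.0285). This call was lost with a pseudocount of 0.1 (1.19), with median ratio scaling (0.96) and without abundant RNA classes (1.01). It was also lost without lung replicate 2 (0.87) and without bone marrow replicate 1 (1.12), 2 (1.10) or 3 (1.10). Spleen lay 1.35 above lymph node (adjusted p = 0.0268), and that call was lost without spleen replicate 2 (1.22), spleen replicate 3 (1.06), or lymph node replicate 1 (1.32), 2 (1.32) or 3 (1.39). A fit of those 2 organs alone did not call it either (1.35).

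Chil3 encodes Ym1, a chitinase-like secreted protein of alveolar macrophages, of activated macrophages and of immature neutrophils and monocytes. Bone marrow held 1148, 1100 and 1111 TPM and lung 499, 504 and 441 TPM. Blood followed with 184, 159 and 167 TPM. Spleen held 15.3, 10.9 and 25.1 TPM, liver 7.60, 2.87 and 4.18 TPM, and lymph node 0.32, 1.42 and 1.49 TPM. The 6 organs did not overlap, and the order differed from that of every other gene of the 10. Each of the 5 steps of Chil3 was called. Bone marrow lay 1.22 ± 0.30 above lung (limma adjusted p = 0.00343), blood minus lung was -1.496 ± 0.30 (adjusted p = 0.000658), and blood lay 3.31 ± 0.30 above spleen (adjusted p = 2.29e-07). Spleen lay 1.62 above liver (adjusted p = 0.00063) and liver 1.48 above lymph node (adjusted p = 0.00134). The liver to lymph node step of Chil3 was not called in a fit of those 6 libraries alone. Of the 1490 stretches of 50 bases of the Chil3 transcript, 29.4% occur in another gene, chiefly Chil4, but Chil4 was listed at 0 in all organs except bone marrow, where its mean was 0.03 TPM. The distant relative Chil1, which shares no such stretch, was at 146 TPM in bone marrow, 77.2 TPM in blood and 4.32 TPM in lung, and so did not share the high lung level of Chil3.

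Retnla, which encodes the secreted protein RELMα (Fizz1) of alternatively activated macrophages, was almost confined to blood among these libraries. It was at 82.1, 67.2 and 75.7 TPM in blood, at 1.22, 1.23 and 0 TPM in lung, and listed at 0 in all 12 libraries of the other 4 organs. Blood stood apart from every other library. Blood lay 5.47 ± 0.26 above lung on the log2(TPM + 1) scale (limma adjusted p = 9.4e-11). The small lung value was called against bone marrow (adjusted p = 0.0247), where all libraries were at 0, although 1 lung library was at 0 as well. That call was lost without lung replicate 1 (-0.58 for bone marrow minus lung), lung replicate 2 (-0.58), or any 1 of the 3 bone marrow libraries (-0.77). The Retnla calls of lung against liver, spleen and lymph node were likewise lost without lung replicate 1 (0.58), lung replicate 2 (0.58) or any 1 library of the other organ (0.77). Retnla reached the mean of 1 TPM needed for testing only in blood. Its relative Retnlg, a product of neutrophils, had another order: 1398 TPM in bone marrow, 769 TPM in blood and 20.6 TPM in lung. None of the 50-base stretches of Retnla occurs in another gene.

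Counts over the 10 genes were read against the share of all genes called, in the same direction unless said otherwise. Blood against bone marrow called 7 genes higher in blood and Chil3 lower, where 31.8% of all genes were called in either direction, and Ly6c2 and Cd14 were not called. Blood against lung called 8 higher (26.4% of all genes) and Chil3 lower (17.3%). All 10 were higher in blood than in liver (23.3% of all genes), in spleen (20.1%) and in lymph node (16.4%). The median log2 difference of the 10 was 1.92 against bone marrow, 3.26 against lung, 4.17 against spleen, 5.06 against liver and 6.05 against lymph node, while the median over all genes tested lay between -0.15 and 0.12. The 5 comparisons share the blood libraries.

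Bone marrow against lung was more mixed, with 5 genes higher in bone marrow (30.3% of all genes), Retnla lower (13.2%) and 4 not called. With single libraries left out, between 4 and 8 were called in that comparison. Its median difference was 0.80, with 0.27 for all genes. Bone marrow was higher than liver in 9 of 10 (25.1% of all genes), than spleen in 9 (18.2%) and than lymph node in 9 (13.7%), and the remaining gene was Retnla, which was at 0 in those organs. The Treml4 call of bone marrow over spleen (1.02) was lost with a pseudocount of 0.1 (1.25), without abundant RNA classes (0.91), and without spleen replicate 1 (0.95), spleen replicate 2 (1.01), or bone marrow replicate 1 (0.99), 2 (1.01) or 3 (1.05). Lung was higher than liver in 9 genes (17.3% of all genes) and than lymph node in 9 (14.9%), with Ly6c2 not called in either. Retnla is counted in both, and in bone marrow against lung, though it was tested only through its level in blood. Ly6c2 was called higher in lung than in liver without liver replicate 1 (1.74) or liver replicate 3 (1.56). In the same comparison Adgre1 (1.18) was not called with only the 2 groups or with library weights (1.20), Treml4 (1.48) was not called with only the 2 groups, and the count of 9 fell to as low as 6.

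Lung and spleen were called apart in 6 genes, all higher in lung, where 40.8% of all genes were called in either direction (2997 higher in lung and 3813 lower, of 16694). These were Chil3, Cd14, Lyz2, Cd68, Fcgr4 and Retnla, and Chil3 had the largest difference among them (4.81 ± 0.30). Retnla, at a mean of 0.82 TPM in lung, was tested only through its level in blood. The receptors Csf1r, Treml4 and Adgre1 were not called, nor was Ly6c2. Dendritic cells can carry Treml4, and the 10 genes of a dendritic cell list summed to 1615 to 1655 TPM in spleen, 749 to 827 TPM in lung and 2390 to 2542 TPM in blood. Most of the spleen sum was Cd74 (1273 TPM) and H2-Ab1 (343 TPM), which B cells also express, while Clec9a, Xcr1 and Flt3 were at 1.49, 0.68 and 0.93 TPM there. Their part in the result was not tested. Liver was lower than spleen in 4 genes, Lyz2, Chil3, Csf1r and Treml4 (17.3% of all genes), and higher in none. Liver was higher than lymph node in 5 (9.45% of all genes), and spleen in 8 (4.44%), with Ly6c2 and Retnla not called.

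**Figure D2:**
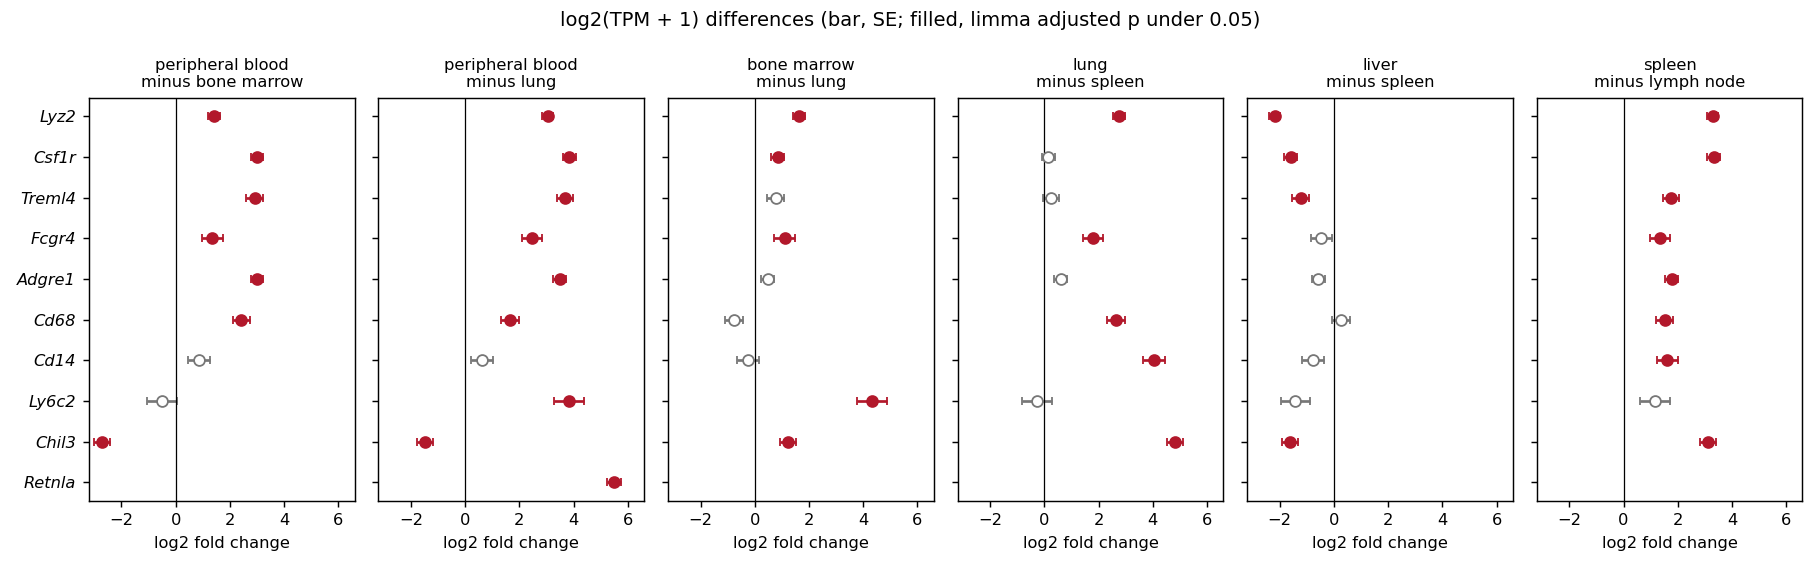
Differences of the 10 genes on the log2(TPM + 1) scale for 6 pairs of organs, with the SE of limma as bars and filled points where the adjusted p was under 0.05; Retnla is left out where all libraries of an organ were at 0. Chil3 lies left of 0 in both blood panels and far right of 0 for lung minus spleen. There Csf1r and Treml4 lie near 0, and Adgre1 lies at 0.60 and is not called.

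A ratio of 2 genes within a library does not move with the scaling of that library, so the make-up of the summed level was also read. Lyz2 took 86.6% ± 0.17 of the sum in blood, 62.6% ± 0.91 in bone marrow and 58.7% ± 0.90 in lung. Chil3 took 1.97% ± 0.17 in blood, 25.0% ± 0.68 in bone marrow and 31.2% ± 0.75 in lung. Ly6c2 took 3.47% ± 0.16 in blood, 9.44% ± 0.29 in bone marrow and 1.35% ± 0.39 in lung. Blood was thus the most dominated by Lyz2, bone marrow combined Chil3 with Ly6c2, and lung had Chil3 with little Ly6c2. In spleen the shares were 65.3% for Lyz2, 12.1% for Ly6c2, 8.19% for Chil3 and 6.15% for Csf1r. In lymph node Ly6c2 took 38.7% ± 1.9, its largest share in any organ. The liver shares were scattered, with Lyz2 at 48.2% ± 14.3 and Ly6c2 at 17.6% ± 13.7.

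**Figure D3:**
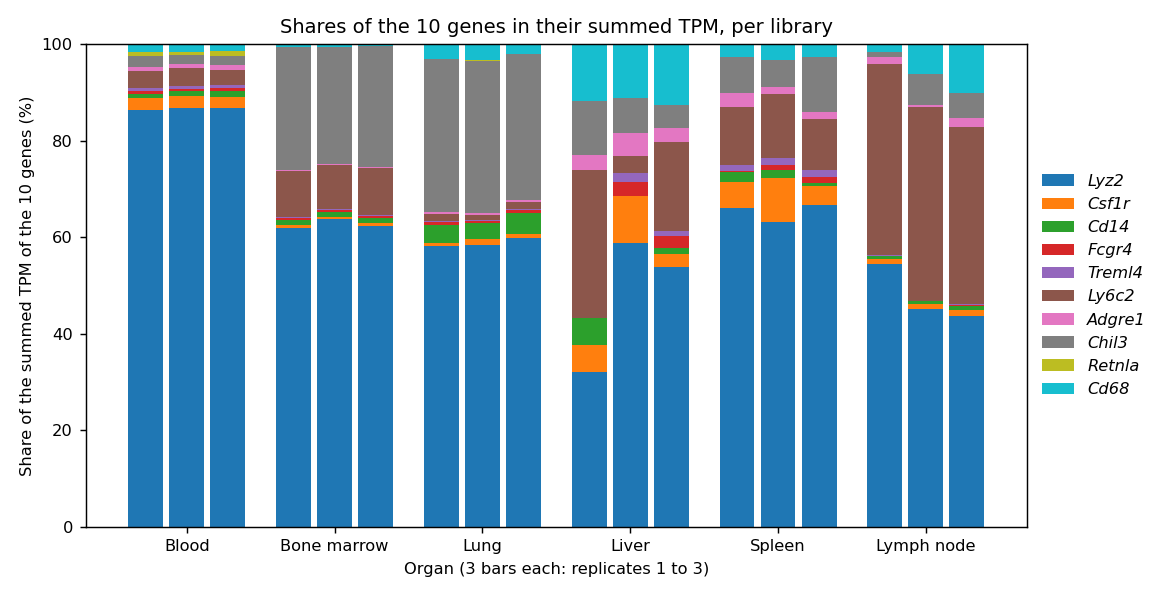
Share of each gene in the summed TPM of the 10 genes, in percent, with 1 bar per library and 3 bars per organ. The bars of blood, bone marrow and lung are nearly the same within an organ, with Chil3 at 31.2% in lung and 1.97% in blood, while the 3 liver bars differ from each other.

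Ratios to Csf1r were read next. Those of Treml4 and Adgre1 overlapped in several organs, while those of Fcgr4 in blood and bone marrow did not. The Treml4 level was 25.4% ± 0.71 of that of Csf1r in blood, 24.5% ± 1.7 in bone marrow, 25.1% ± 11.8 in lung and 22.3% ± 9.7 in spleen. Adgre1 was at 38.0% ± 0.80 of Csf1r in blood, 36.4% ± 8.6 in bone marrow, 46.3% ± 11.1 in lung and 33.8% ± 17.9 in spleen. In liver (68.8% ± 29.5) and lymph node (117% ± 50.2), where both genes were low, every Adgre1 ratio lay above those of blood. The ranges of blood, bone marrow and spleen overlapped for both genes; lung overlapped them for Treml4 and lay just above blood for Adgre1. Fcgr4 was at 24.0% ± 0.68 of Csf1r in blood, 75.3% ± 0.73 in bone marrow, 68.0% ± 33.6 in lung and 16.6% ± 14.9 in spleen, with no overlap between blood and bone marrow. Chil3, Cd14 and Cd68 also moved apart from Csf1r. Chil3 was 0.83 ± 0.10 times Csf1r in blood, 45.2 ± 2.0 times in bone marrow and 37.1 ± 10.9 times in lung. Cd14 was 0.44 ± 0.03 times Csf1r in blood, 2.02 ± 0.11 times in bone marrow and 4.63 ± 1.5 times in lung, and only 0.23 ± 0.14 times in spleen. Cd68 was 0.66 ± 0.03 times Csf1r in blood and 3.30 ± 1.2 times in lung. The ranges of blood and lung did not overlap for Chil3, Cd14 or Cd68. Treml4 against Ly6c2, a nonclassical to a classical marker, was 17.5% ± 1.3 in blood and 1.43% ± 0.09 in bone marrow. Blood was not set apart from lung by this ratio. Lung held 3.54, 5.52 and 1.43 TPM of Treml4 beside 25.2, 14.3 and 22.7 TPM of Ly6c2, so its libraries lay on both sides of blood. The spleen libraries lay between bone marrow and blood.

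Further marker genes were read for each kind of cell, leaving the 10 genes out. All 9 other nonclassical monocyte genes were above 1 TPM in blood and in lung, and 8 of them in bone marrow and in spleen. Their sum was 749 to 790 TPM in blood, against 193 to 202 TPM in bone marrow and 73.3 to 96.8 TPM in lung. In blood they included Clec4a3 at 151 TPM, Cx3cr1, the fractalkine receptor, at 80.3 TPM, Ace at 77.6 TPM and Adgre4 at 65.6 TPM. Clec4a3 was at 11.5 TPM in bone marrow and Cx3cr1 at 6.91 TPM, so both genes were, like Treml4, much lower there than in blood. The sum of all 9 was lower there by a smaller factor. The list is no pure measure of nonclassical monocytes. Spleen (165 to 208 TPM) and lymph node (162 to 165 TPM) owe most of their sum to Eno3, Gngt2 and Pou2f2, which lay between 44.8 and 65.0 TPM there.

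Of the 9 other classical monocyte genes, all were above 1 TPM in blood and 8 each in bone marrow, lung and spleen. The sums were 2445 to 2469 TPM in blood and 1136 to 1174 TPM in bone marrow. Fn1, fibronectin, was at 529 TPM in blood and 46.5 TPM in bone marrow, F13a1 at 182 and 30.4 TPM, and Ccr2, the receptor that lets classical monocytes leave the marrow, at 355 and 124 TPM. These 3 were higher in blood, unlike Ly6c2, and other genes of the list made up most of the bone marrow sum. In lung, spleen, liver and lymph node the sum of this list, between 686 and 1014 TPM, was mostly Ifi27l2a, an interferon-induced gene at 639 to 814 TPM there.

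Bone marrow, where Ly6c2 and Chil3 were highest, held the highest neutrophil and progenitor marker levels. All 12 neutrophil genes were above 1 TPM there, as they were in blood, lung and spleen. Their sum was 47430 to 47864 TPM in bone marrow, against 18163 to 19274 TPM in blood, 518 to 705 TPM in spleen and 639 to 798 TPM in lung. Liver held 182 to 366 TPM and lymph node 19.5 to 78.8 TPM. All 10 progenitor genes were above 1 TPM in bone marrow (sum 1477 to 1492 TPM), among them Mpo at 535 TPM and Elane at 366 TPM, the granule enzymes of promyelocytes. Blood held 212 to 216 TPM, of which F13a1 made 182 TPM, and no other organ passed 29.2 TPM. In bone marrow Chil3 was at 21.1% ± 0.30 of Ngp, a granule protein of immature neutrophils, whereas in lung it was 14.9 ± 5.5 times Ngp. That ratio rests on 1 neutrophil gene, and all 12 were above 1 TPM in lung as well. The part of neutrophils and progenitors in the Lyz2, Chil3, Ly6c2 and Fcgr4 levels was not tested.

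Lung was the organ in which alveolar macrophage genes stood out. All 11 other genes of that list were above 1 TPM there, with a sum of 346 to 388 TPM. Ear2 was at 165 TPM, Ear1 at 51.0 TPM, Plet1 at 43.1 TPM and Atp6v0d2 at 27.6 TPM. Car4 was at 24.2, 30.7 and 18.2 TPM, and Krt79 at 25.0, 10.04 and 15.5 TPM, and both were listed at 0 in all 15 libraries of the other organs. Fabp1 was at 13.3 TPM in lung and at 0 in 14 of the others. With Chil3 included, limma called all 12 genes of the list higher in lung than in lymph node (14.9% of all genes). The same held for lung against spleen (2997 of 16694 genes called higher in lung). Car4 and Krt79 were tested only because lung was high, so their calls add nothing to the levels above. Ear1 and Fabp1 were also at 0 in all spleen and lymph node libraries, and Cidec in those of lymph node. Blood held 164 to 170 TPM of this list, 147 TPM of it Ear2, with Car4, Krt79 and Cidec at 0. Bone marrow held 84.4 to 94.4 TPM, mostly Ear2 and Ear1.

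Markers of the general macrophage list were highest in blood. All 10 others were above 1 TPM there, with a sum of 1361 to 1531 TPM, of which Apoe made 1228 TPM. The complement genes C1qa, C1qb and C1qc were at 57.6, 78.7 and 52.2 TPM in blood, at 0.56, 1.77 and 0.95 TPM in lung and at 9.86, 10.6 and 8.30 TPM in spleen. Of the 12 genes of the list with Adgre1 and Cd68 included, 10 were higher in blood than in lung (26.4% of all genes) and 2 were lower (17.3%). The 2 were Mrc1, the mannose receptor, at 14.8 TPM in lung and 5.13 TPM in blood, and Mertk, a receptor for the uptake of dead cells, at 5.86 and 1.34 TPM. Trem2 was listed at 0 in liver, spleen and lymph node.

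Of the Kupffer cell genes, Clec4f was at 8.08, 11.1 and 6.33 TPM in liver and at 0 in blood, bone marrow and spleen. It was at 2.00 TPM in 1 lung library and 0.45 TPM in 1 lymph node library. Other Kupffer cell genes were at low levels in liver, with Slc40a1 at 7.45 TPM, Cd5l at 5.16 TPM, Vsig4 at 0.10 TPM and Marco at 0. Blood had the largest sum of this list (320 to 342 TPM against 23.4 to 37.4 TPM in liver), but 150 TPM of it was Clec1b, which platelets carry, and 123 TPM was Slc40a1. Timd4 at 6.50 TPM, Vsig4 at 14.4 TPM and Cd5l at 31.8 TPM were also higher in blood than in liver, while Clec4f and C6 were at 0 there.

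Red pulp macrophage genes did not set spleen apart. Spic, the transcription factor of these cells, was at 1.56 TPM in spleen, 1.92 TPM in liver, 1.43 TPM in bone marrow and 1.41 TPM in blood, and Vcam1 was at 8.28 TPM in spleen and 8.97 TPM in bone marrow. The summed level of the 7 other genes was 34.8 to 55.6 TPM in spleen, 59.6 to 69.2 TPM in bone marrow and 197 to 201 TPM in blood. In lymph node, where the 10 genes were lowest, 1 of 10 general macrophage genes was above 1 TPM (Apoe), 0 of 10 Kupffer cell genes, 1 of 11 alveolar genes and 1 of 7 red pulp genes.

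**Figure D4:**
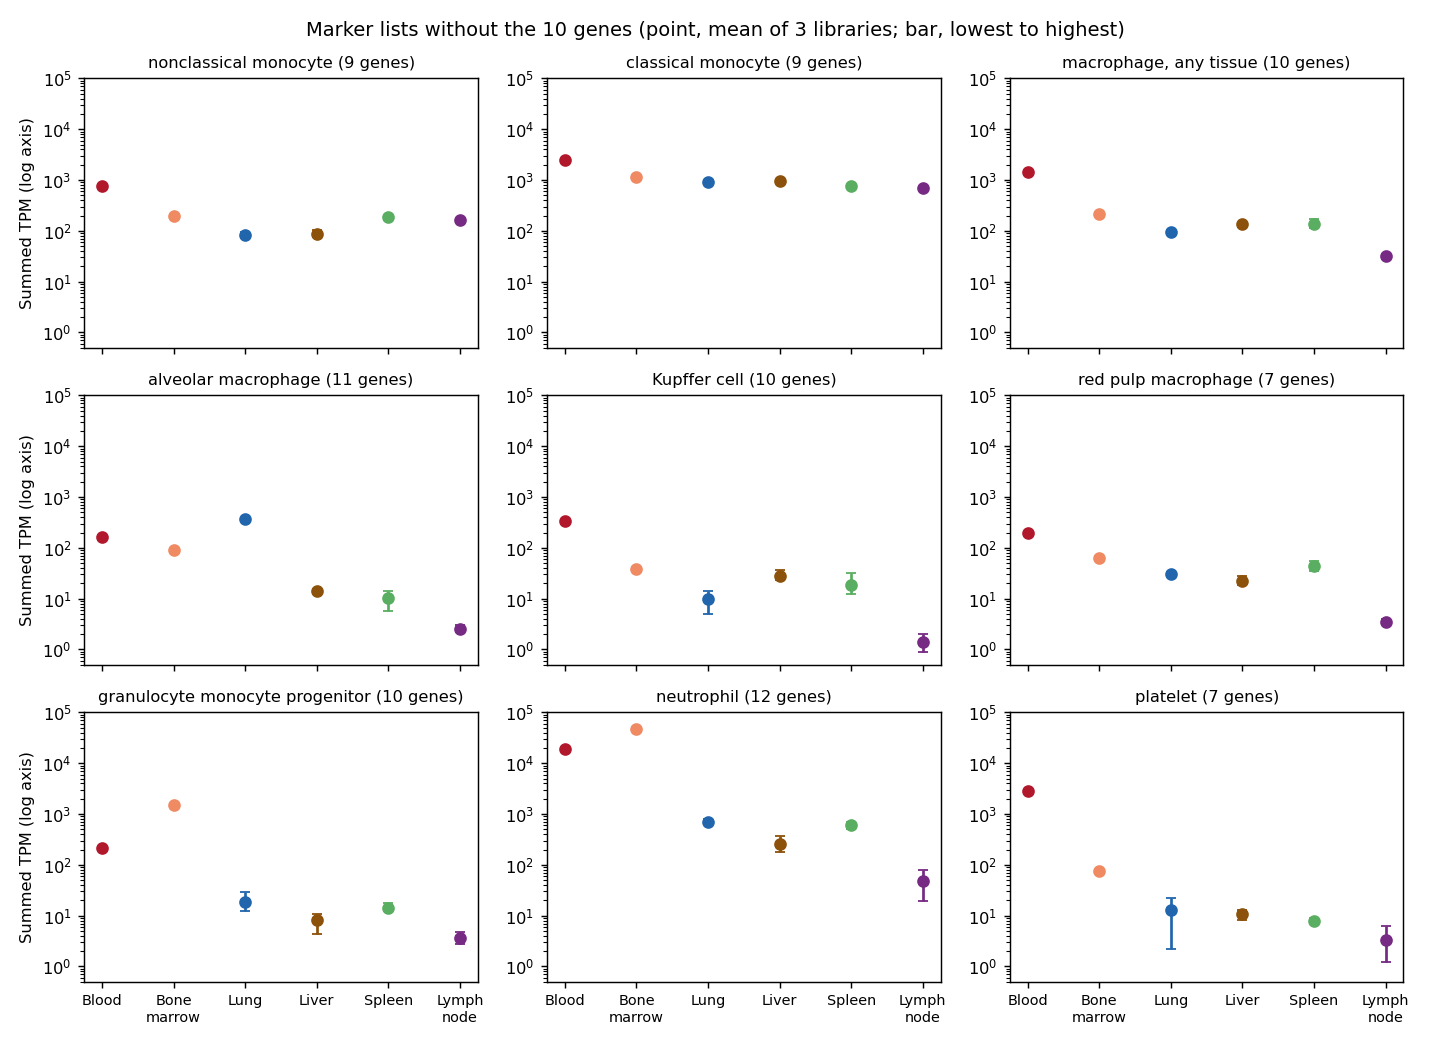
Summed TPM of 9 marker lists without the 10 genes, on a log axis, by organ; points are the mean of 3 libraries and bars run from the lowest to the highest. Lung is highest only for the alveolar macrophage list, bone marrow for the progenitor and neutrophil lists, and blood for the other 6.

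Blood also held the most platelet RNA, with all 7 platelet genes above 1 TPM and a sum of 2748 to 2868 TPM, against 70.5 to 82.3 TPM in bone marrow and at most 22.6 TPM in any other library. Ppbp was at 817 TPM and Pf4 at 680 TPM in blood. Eosinophil genes, read because eosinophils carry F4/80, were highest in bone marrow, with a sum of 227 to 235 TPM and 7 of 8 genes above 1 TPM. They summed to 122 to 136 TPM in blood with 4 of 8 above 1 TPM, of which Alox15 made 112 TPM, while the granule genes Epx and Prg2 were at 0.14 and 0.22 TPM there. The part of platelets and eosinophils in the Retnla and Adgre1 levels was not tested.

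Receptors and transcription factors of the myeloid lineage, a list of 24 that contains Csf1r, was highest in blood for most of its genes. Of these, 23 were higher in blood than in bone marrow, and Cebpd was not called, against 31.8% of all genes called in either direction. Tyrobp, the adaptor of many myeloid receptors, was at 1474 TPM in blood, 415 TPM in bone marrow, 98.6 TPM in lung and 3.04 TPM in lymph node. Spi1 (PU.1) was at 272, 102, 23.3 and 3.11 TPM in the same organs, and Itgam (CD11b) at 200, 113, 7.83 and 0.57 TPM. All 24 were higher in blood than in liver (23.3% of all genes), in spleen (20.1%) and in lymph node (16.4%). Bone marrow was higher than lung in 15 (30.3% of all genes) and lower in 2 (13.2%), and 7 were not called. Of the 2, Tlr2, a receptor of bacterial lipoproteins, was at 45.8 TPM in lung, 44.1 TPM in blood and 19.4 TPM in bone marrow, and Ctss, a lysosomal protease that antigen-presenting cells also make, at 322 TPM in lung and 227 TPM in bone marrow. Lung was higher than spleen in 12 and lower in none, with 12 not called. Of all 16694 genes tested, 2997 were called higher in lung and 3813 lower, 40.8% in either direction. Liver was lower than spleen in 14 of the 24, with Spi1 at 1.28 TPM in liver and 14.3 TPM in spleen, and higher in 3, where 31.3% of all genes were called in either direction. Liver was higher than lymph node in 10 and lower in 3, and 11 were not called (31.1% of all genes called).

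Among genes that are no members, those with the most similar profile over the 18 libraries were found by Pearson correlation of log2(TPM + 1), as a description, since all points share 6 organs. Lyz2 was most like Ccl6 (r = 0.99), Sirpa and Mpeg1. Csf1r was most like Tyrobp (r = 0.97), Il1b and Tgfbi, and Fcgr4 was most like Gda (r = 0.98), Emilin2 and Clec4d. Cst3 and Sirpb1c were among the nearest genes of both Treml4 and Adgre1, and Clec4a1 was also among those of Treml4. Cd14 was nearest to Fth1 (r = 0.97), Ccl6 and Ostf1, and Cd68 to Cd36 (r = 0.97), Clec7a and Plek. Ly6c2 was nearest to Hk3 (r = 0.97), Pgd and Chil1, and Chil3 to Plaur (r = 0.96), Thbs1 and Hdc. Retnla was nearest to Cdc42ep5 (r = 0.99), Draxin and Alox12, all highest in blood. Among the 10 genes themselves, Treml4 with Adgre1 (r = 0.98), Csf1r with Adgre1 (r = 0.97) and Lyz2 with Fcgr4 (r = 0.97) were most alike, and Chil3 with Retnla (r = 0.29) least.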

How the data were processed

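Gene-level TPM values were deposited by the authors, 1 table per library, to 2 decimals. Per the submitters' processing notes, STAR, RSEM and the mm10 build were used; versions, annotation and strand settings are not given in the sources used here. Symbols came from GENCODE M21 (55141 of 55487 IDs). Genes averaging 1 TPM or more in any organ (16694, all 10 members among them) were tested with limma 3.58.1 in R 4.3.3 on log2(TPM + 1), which understates changes of low genes. The model had a mean per organ over 18 libraries (12 residual degrees of freedom) and eBayes with trend and robust settings. P-values were adjusted by Benjamini-Hochberg over all genes and called under 0.05. As TPM were deposited, count tests were not run. The 10 members, all marker lists and the rule for similar genes (3 per member, mean of at least 10 TPM in 1 organ) were written with earlier results of these data known. Of the similar genes, 1 is not reported here. The fit was tested on simulated data. No library pair was identical. Alternatives are given at the end. Shared 50-base stretches came from GENCODE M21 transcripts, and promoters from RefSeq (GRCm38.p6). Adgre1 had no usable window, and Csf1r and Cd14, on chromosome 18, were left out of the motif search.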

Additional observations from a re-analysis of the deposited data

How the results depend on the processing

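The fold changes of the 10 genes, the counts of calls and the F test were recomputed with a pseudocount of 0.1, no filter, a filter at 5 TPM, scaling to 20 T cell genes, median ratio scaling, without 142 abundant RNA genes, with library weights, with the replicate number as a block, with only the 2 groups compared (not the F test), and with each of the 18 libraries left out. Shares of the summed level were recomputed without Ly6c2 and with each library of the organ left out, and ratios, marker sums and correlations were not recomputed. All 10 genes kept the call among 6 organs. Of the differences of single genes, 1247 kept their call under the settings that left out no single library, the block included, 26 gained it, 15 lost it and 3 changed sign. With 1 library left out, 2530 kept it, 22 gained it, 35 lost it and 5 changed sign. A difference of the same sign that was uncalled in both fits counts as kept. Where the library left out was of an organ outside the comparison, the difference itself could not move, and only the shared spread could. Scaled to T cell genes, the log2 fold change of Ly6c2 was 0.10 for blood minus bone marrow, 0.11 for lung minus spleen and 0.0616 for liver minus lymph node. With 1 library left out, differences ranged as follows: Csf1r, lung minus spleen, -0.0845 to 0.418; Treml4, lung minus spleen, -0.0730 to 0.639; Fcgr4, liver minus spleen, -0.873 to 0.00601; Ly6c2, liver minus lymph node, -0.848 to 0.743.

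The count of members called between liver and lymph node was 3 with only those 2 groups (5 in the reported fit). Of the 24 receptors and transcription factors, 19 were called between lung and spleen when scaled to T cell genes (12 reported), and, with only the 2 groups compared, 11 between liver and spleen (17 reported) and 8 between liver and lymph node (13 reported). Without Ly6c2 in the sum, Lyz2 took 89.7% in blood, 69.2% in bone marrow, 74.2% in spleen and 78.1% in lymph node, and Chil3 27.6% in bone marrow. Each of these shares rises only because the sum is smaller.

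Scaling to T cell genes moved the median of all genes by up to 0.98 (blood minus lymph node) and by 0.49 for blood minus bone marrow; median ratio scaling moved it by at most 0.18. The share of called genes that were higher in the first organ moved, when scaled to T cell genes, from 41.0% to 84.0% for blood against bone marrow, 60.5% to 86.6% for blood against lung, 59.1% to 92.8% for blood against liver, 56.9% to 96.3% for blood against spleen and 43.9% to 97.7% for blood against lymph node. It moved from 72.9% to 89.2%, 75.5% to 94.0% and 60.6% to 96.2% for bone marrow against liver, spleen and lymph node, from 49.6% to 72.6%, 44.0% to 70.3% and 35.2% to 76.4% for lung against the same organs, and from 44.7% to 55.3%, 30.4% to 67.5% and 31.0% to 74.2% for liver against spleen, liver against lymph node and spleen against lymph node. With median ratio scaling it was 58.0% for blood against bone marrow, 65.6% for blood against lymph node, 59.4% (69.7% reported) for bone marrow against lung, 61.8% and 65.1% for bone marrow against liver and spleen, 51.3% and 51.2% for lung and liver against lymph node, and 65.6% for spleen against lymph node.

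Counts of all genes called also moved. Scaled to T cell genes, 11168 were called between blood and liver (6580 reported), 10283 between blood and spleen (5912), 10584 between blood and lymph node (6249), 7160 between bone marrow and spleen (4031), 7665 between bone marrow and lymph node (3764) and 1560 between spleen and lymph node (2390). With library weights and with only the 2 groups compared, 8930 and 8478 were called between blood and bone marrow (5308), 10167 and 9623 between blood and lymph node, 7766 and 7151 between bone marrow and lymph node, 2760 and 1977 between lung and liver (5818), 3035 and 2257 between liver and spleen (5219) and 4400 and 3771 between spleen and lymph node. Between liver and lymph node, 3390 were called with only those groups (5189).

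With the replicate number as a block, the count of members called changed only for liver against spleen (5 in place of 4), and 143 of the 144 differences counted above kept their call; the other, Ly6c2 in liver minus spleen, was called at -1.42. Libraries of the same number did not deviate together (r between -0.03 and 0.03 over 45 pairs), and 9 of 18 libraries correlated best with their own number. TPM keeps no depth, and low values in liver and lung rest on fewer detected genes.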
